A study of Homo sapiens with 3 samples.

Results

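The genes described here are 39 conjugation enzymes and the enzymes that make their cofactors, measured by RNA-seq in 22Rv1 WT cells. They were chosen by symbol, with earlier results of these data known. They comprise 16 glutathione transferases (the GST and MGST genes), 4 genes of glutathione synthesis and reduction, 2 PAPS synthases, 10 sulfotransferases (SULT), 3 UGT1A glucuronosyltransferases, 2 arylamine N-acetyltransferases and 2 methyltransferases. All 39 were found among the 27024 counted genes. 22Rv1 cells are a human line established from a prostate carcinoma. The 3 libraries, replicates 1 to 3, came from untreated WT cells, which carry the intact enhancer around the studied prostate cancer risk SNP. The study's methods call them control clones from the genome editing experiment and its results call them biological replicates, so it is not settled whether the spread between them is that between clones or between cultures. The enhancer knockout and allele-edited cells were not analysed here, so every value describes the unedited state. All 9 prostate luminal markers examined, such as the prostate homeobox gene HOXB13, were expressed, with a summed level of 101900 to 103100 normalized counts per library. None of 5 leukocyte markers (27.9 to 49.6) and of 2 endothelial markers (0 to 1.6) was expressed. Of 6 hepatocyte markers, whose sum was 10130 to 10930, only albumin was expressed, with SERPINA1 at 0 in each library, and albumin stood at 10590 ± 439 normalized counts (SD, n = 3). Of the fibroblast markers, whose sum was 435.7 to 492.0, 2 of 6 were expressed, COL1A1 at 261 ± 17.2 and LUM at 161 ± 18.3 normalized counts. The part of other cell types in the levels below was not tested.

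Conjugation is the phase of drug and hormone metabolism in which a group from a cofactor is joined to a molecule. Where the group is polar, this usually makes the molecule more soluble and easier to export. Glutathione transferases join the tripeptide glutathione to electrophiles, sulfotransferases transfer sulfate from the activated donor PAPS, and UGT enzymes transfer glucuronic acid. N-acetyltransferases transfer an acetyl group from acetyl-CoA, and methyltransferases transfer a methyl group from S-adenosylmethionine. In prostate tissue these reactions act on steroid hormones, carcinogens and drugs, and GSTP1 is the best known of the genes because its promoter is commonly methylated in prostate carcinoma.

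The deposited values were normalized counts, that is, reads per gene divided by 1 size factor per library, and the reads themselves could be recovered from them. The libraries held 38252744, 35675670 and 38629080 reads on counted genes. In each library 0.174% to 0.176% of these fell on the 39 genes, and PAPSS1, GSR and MGST1 together held 55.8% of the reads of the group. A gene was called expressed at 1 CPM (a count scaled to library size, with TMM-scaled sizes) or more in all 3 libraries. By this rule 22 of the 39 genes (56.4%) were expressed, against 47.7% of all counted genes and 63.8% of the protein-coding ones, so the share was not far from that of other coding genes. All 4 glutathione synthesis genes, both PAPS synthases and all 3 MGST genes were expressed, but only 2 of the 10 sulfotransferases were. The mean of 12 genes was at or under 3 reads per library, the limit that a count of 0 allows, and 4 of these (GSTM5, SULT1C4, SULT2A1 and UGT1A10) had 0 reads in each library. Such limits cover counting error only, because the sources used here name no molecular identifiers and several reads can come from 1 molecule. The median level over the 39 genes was 7.43 on the scale of log2(normalized count + 1), between the medians of all counted genes (4.56) and of protein-coding genes (8.46).

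**Figure D1:**
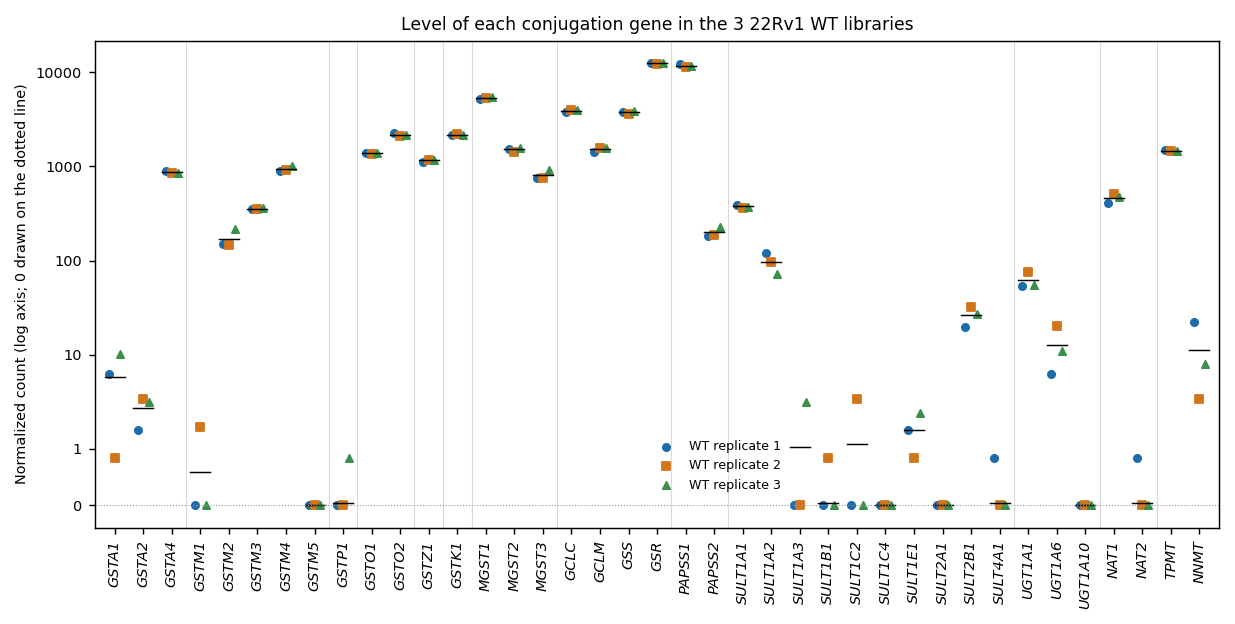
The plot gives the normalized count (log axis) of each of the 39 genes in the 3 WT libraries, grouped by role, with a horizontal line at the mean and values of 0 on the dotted line. The 3 libraries lie close together for the abundant genes, and 17 genes fall below the expression rule.

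Of the cytosolic glutathione transferases, GSTP1, the pi class enzyme, was practically unread. It had 0, 0 and 1 reads in replicates 1, 2 and 3, that is 1 of 112557494 reads in all. A count of 0 allows up to 3 reads in a library, or 0.0784 CPM in replicate 1 and 0.084 CPM in replicate 2. GSTP1 lies on chromosome 11 at positions 67351213 to 67354127 of GRCh37 on the plus strand, no annotated gene overlaps its exons and no near-identical transcript was found elsewhere. The bases just upstream of its first annotated start (chr11:67351033-67351212, GRCh37, plus strand) are shown because this promoter is the one known for methylation. Capitals mark the CpG dinucleotides, the sites where methylation is found, and there are 20 of them in 180 bases.
GSTP1 upstream: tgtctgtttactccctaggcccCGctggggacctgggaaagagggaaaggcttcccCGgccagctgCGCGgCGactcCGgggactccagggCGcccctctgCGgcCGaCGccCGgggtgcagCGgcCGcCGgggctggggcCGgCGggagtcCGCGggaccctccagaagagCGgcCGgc
The methylation of these sites was not measured in the data used here.

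The mu class was divided along its gene cluster. GSTM4 had 893.6, 907.2 and 1000.6 normalized counts in replicates 1, 2 and 3, GSTM3 had 356.3, 353.7 and 357.4, and GSTM2 had 150.1, 147.2 and 216.5. GSTM3 thus hardly varied, while replicate 3 was the highest for the other two. GSTM1 had 0, 2 and 0 reads and GSTM5 had 0 in each library. The 5 genes lie in a cluster on chromosome 1, GSTM3 on the minus strand and the others on the plus strand. Their starts follow the order GSTM4, GSTM2, GSTM1, GSTM5 and GSTM3. By start, the pair with at most 2 reads sat between the expressed genes. The genes are not separate in their annotated spans, since that of GSTM2 covers GSTM1 and that of GSTM5 covers GSTM3. The starts of GSTM2 and GSTM1 are 19.8 kb apart and those of GSTM5 and GSTM3 28.8 kb. GSTM1 is often deleted in the human germline, and whether 22Rv1 cells carry it was not measured here. GSTM2 and GSTM1 transcripts match over 97.9% of the length at 94.0% identity, and their reads are uncertain to that extent.

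**Figure D2:**
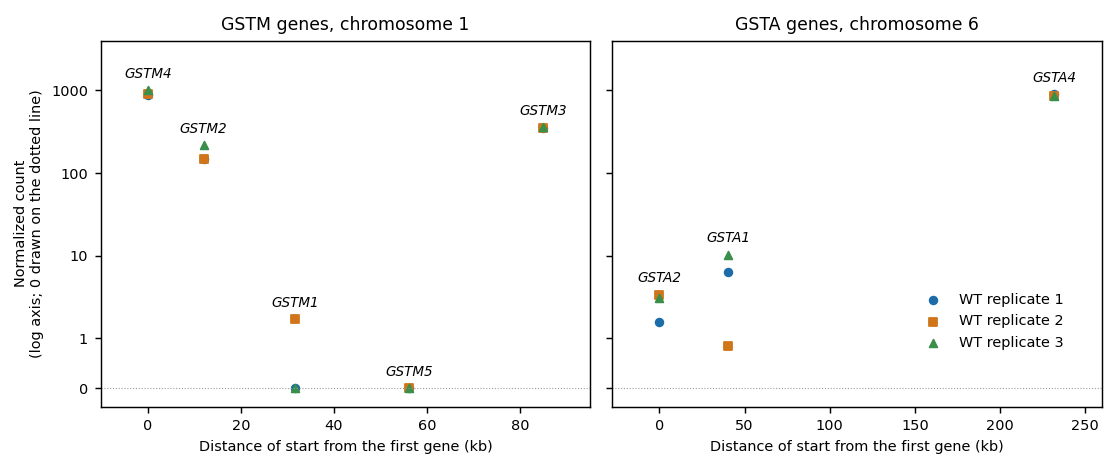
The panels plot the normalized count (log axis, 0 on the dotted line) of the GSTM and GSTA genes in each WT library against the distance in kb between their transcription starts and that of the first gene of the cluster. GSTM1 and GSTM5 lie at or near 0 between expressed neighbours, and GSTA4 stands 231.8 kb from GSTA2 and far above it.

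In the alpha class only GSTA4, an enzyme with preference for the lipid peroxidation product 4-hydroxynonenal, was expressed, at 902.3, 849.6 and 852.6 normalized counts in replicates 1, 2 and 3. The classical liver forms GSTA1 and GSTA2 had 8, 1 and 13 reads and 2, 4 and 4 reads. GSTA1 and GSTA2 are 95.4% identical over 98.9% of the GSTA1 transcript, and whether their few reads were assigned to the right gene was not tested. All genes of the omega, zeta and kappa classes were expressed. GSTK1, the mitochondrial and peroxisomal kappa enzyme, had 2174.3, 2186.7 and 2182.3 normalized counts. GSTZ1, which takes part in tyrosine breakdown, had 1127.4, 1158.5 and 1183.3. The omega genes GSTO1 and GSTO2, whose products reduce dehydroascorbate, were both expressed. GSTO1 had 1392.9, 1350.6 and 1399.8 normalized counts, and GSTO2 had 2286.4, 2080.1 and 2167.3. Counts rise with transcript length, and the canonical GSTO2 transcript is 6715 bases long against 813 bases for GSTO1. Per kilobase the order was the other way round, and the level of GSTO1 was 5.24 ± 0.18 times that of GSTO2 (SD, n = 3).

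All 3 membrane-bound transferases of the MAPEG family were expressed. MGST1 (chromosome 12, 16500076 to 16762193 of GRCh37), a glutathione transferase and peroxidase of the endoplasmic reticulum and mitochondria, had 5183.6, 5380.4 and 5522.7 normalized counts in replicates 1, 2 and 3. Per kilobase of the canonical transcript it reached 5797 ± 184 (SD, n = 3), above 97.2% of expressed coding genes. Per kilobase of all annotated exons it reached 721 ± 22.9 (SD, n = 3), above 83.4% of them, so its place among other genes rests on the transcript model. MGST2, which can also make leukotriene C4, had 1530.4, 1440.3 and 1580.0 normalized counts. MGST3 was higher in replicate 3, at 914.8 normalized counts, than in replicates 1 and 2, at 760.0 and 754.0. MGST1 exceeded MGST3 by a factor of 8.34 ± 0.71 per kilobase (SD, n = 3).

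Within the summed per-kilobase level of the 16 glutathione transferases, the 3 MGST genes took 56.0% ± 0.55 (SD, n = 3). The kappa class held 13.9% ± 0.36, the omega class 13.3% ± 0.36, the zeta class 6.39% ± 0.10, the mu class 5.91% ± 0.33 and the alpha class 4.63% ± 0.23. The pi class held 0.0023% on average, from its 1 read. The kappa and omega shares overlapped between libraries, although kappa was above omega within each, and those of the other neighbours in this order did not overlap. The shares depend on the length taken for each gene: with all annotated exons in place of the canonical transcript the MGST share was 35.3%, the omega share 28.2%, the alpha share 11.4% and the zeta share 3.76%. The leading gene changed too: MGST1 held 38.0% ± 0.70 with the canonical transcript, whereas with all exons GSTO1 held 22.2% ± 0.22 and MGST1 19.6% ± 0.56 (SD, n = 3).

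**Figure D3:**
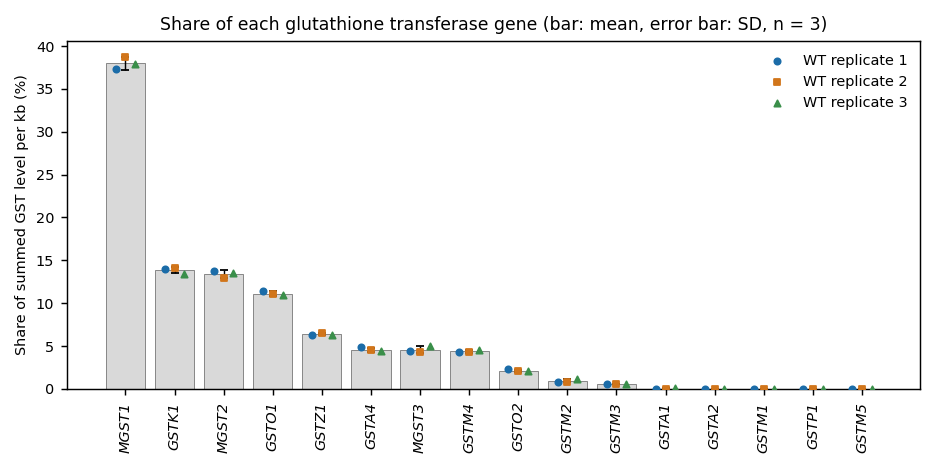
Bars give the mean share (%) of each glutathione transferase gene in the summed normalized count per kilobase of canonical transcript, with the SD over 3 WT libraries and 1 point per library. MGST1 took 38.0% on this scale (19.6% per kilobase of all annotated exons), and GSTA1, GSTA2, GSTM1, GSTP1 and GSTM5 lie on the axis.

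Glutathione itself is made by glutamate-cysteine ligase, a catalytic (GCLC) and a modifier subunit (GCLM), and by glutathione synthetase (GSS), and is recycled from its oxidized form by glutathione reductase (GSR). All 4 genes were expressed. GSR had 12603.9, 12355.2 and 12450.6 normalized counts, the highest of the 39 genes on this scale, and per kilobase it was above 95.8% of expressed coding genes. GCLC had 3806.5, 4022.2 and 3953.7 normalized counts, GSS 3793.1, 3616.9 and 3866.3, and GCLM 1414.2, 1568.1 and 1563.5. Replicate 1 was thus the lowest for both subunits of the ligase. Per kilobase GCLC was 3.35 ± 0.11 times GCLM (SD, n = 3), and 3.47, 3.31 and 3.26 in replicates 1, 2 and 3. This ratio was 1.63 when all annotated exons set the length, so its size rests on the transcript model.

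PAPS, the sulfate donor, is made from ATP and sulfate by the bifunctional synthases PAPSS1 and PAPSS2. PAPSS1 was abundant, at 12225.4, 11514.1 and 11557.9 normalized counts in replicates 1, 2 and 3, and PAPSS2 was at 183.3, 188.7 and 225.9. Per kilobase PAPSS1 made up 98.9% ± 0.16 of the level of the pair (SD, n = 3). The ratio of PAPSS1 to PAPSS2 was 98.2, 89.8 and 75.3 in the 3 libraries, lowest in replicate 3, where PAPSS2 was highest.

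Of the SULT genes, whose products use PAPS, few were expressed, and these were low beside PAPSS1. Sulfotransferases of other families were not examined. SULT1A1, the main phenol sulfotransferase, had 393.5, 365.6 and 374.0 normalized counts. SULT1A2 followed with 119.3, 95.6 and 72.4, so that replicate 1 was 1.65 times replicate 3. These were the expressed members, and they held 67.4% ± 3.3 and 25.8% ± 4.6 of the summed SULT level per kilobase (SD, n = 3). SULT2B1, a hydroxysteroid and cholesterol sulfotransferase, missed the rule with 19.8, 32.2 and 26.8 normalized counts (25, 38 and 34 reads), between 0.653 and 1.06 CPM. The other seven were at or under the limit of 3 reads. Among them SULT2A1, the dehydroepiandrosterone sulfotransferase of adrenal and liver, and SULT1C4 had 0 reads in each library, and SULT1E1, the estrogen sulfotransferase, had 2, 1 and 3. SULT1B1 had 0, 1 and 0 reads, SULT1C2 had 0, 4 and 0, and the brain form SULT4A1 had 1, 0 and 0. SULT1A3, the dopamine-preferring form, had 0, 0 and 4 reads, but 99.2% of its transcript matches SULT1A4 at 100% identity and SULT1A4 was at 0 in each library. Reads of that pair map to both places, and how the authors' counting treated them is not given in the sources used here, so these values do not show whether the pair was expressed. SULT1A1 and SULT1A2 overlap annotated non-coding genes on the same strand in GENCODE release 44, which leaves 21% and 52.6% of their bases free and their counts uncertain if the authors' annotation held them too. With all annotated exons as length SULT1A2 held 43.0% of the summed SULT level, against 25.8%.

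The UGT1A genes form 1 locus on chromosome 2, in which separate starts are spliced to common 3′ exons. UGT1A1, the bilirubin enzyme, had 53.7, 76.2 and 55.1 normalized counts and was the lowest expressed gene of the 39. UGT1A6, which acts on small phenols, had 6.3, 20.3 and 11.0 normalized counts (8, 24 and 14 reads), and UGT1A10, a gut form, had 0 in each library. Of the 2361 bases of the UGT1A1 transcript, 1479 lie in exons shared with other UGT1A genes and 882 are its own. UGT1A10 holds the same 1479 shared bases, as do UGT1A4, UGT1A7, UGT1A8 and UGT1A9, and all had 0 reads in each library. Any reads on the shared exons were thus not counted for those genes, if the authors' annotation held the same exons. How such reads were treated for UGT1A1 is not given in the sources used here and was not tested. If they were left out for UGT1A1 too, its level would be 69.9 ± 14.3 per kilobase of its own bases (SD, n = 3). That is above PAPSS2 (53.9 per kilobase), whereas the 26.1 ± 5.3 over the whole transcript is below it.

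NAT1, the broadly expressed N-acetyltransferase of arylamines, had 413.2, 508.6 and 471.6 normalized counts, lowest in replicate 1. NAT2, the isoniazid acetylator of liver and gut, had 1, 0 and 0 reads. Over all libraries NAT1 had 1723 reads and NAT2 1, a ratio per kilobase of 1231 with an exact 95% counting interval of 221 to 48640. The ratio was 702 with all annotated exons as length, and 801 and 803 without replicates 2 and 3, all within that interval. TPMT, which methylates thiopurine drugs, had 1506.7, 1447.9 and 1450.1 normalized counts. NNMT, which methylates nicotinamide, had 28, 4 and 10 reads and did not reach 1 CPM in any library.

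Ordered by mean normalized count per kilobase of canonical transcript, the 27 genes above 3 reads ran from MGST1 (5797), PAPSS1 (4682) and GSR (4110) to GSTA1 (4.74) and GSTA2 (2.21). The top of this order depends on the length: per kilobase of all annotated exons it was PAPSS1 (3609), GSR (3462), GSTO1 (817) and MGST1 (721), and with the median length of coding transcripts GSR (8624), MGST1 (7412) and PAPSS1 (4682). The values of neighbours in this order overlapped between libraries in 11 of 26 pairs. MGST2 overlapped with GSTK1 above it and with GSS below it, while GSTK1 and MGST2 were above GSS within each library. MGST3 overlapped with GSTA4 and GSTM4, and GSTO2 with GCLM. The order of MGST3 and GSTA4, and that of GSTO2 and GCLM, changed between libraries and is not settled. MGST3 was above GSTM4 within each library, though by little in replicate 2. NAT1 also overlapped with SULT1A1, SULT1A2 with GSTM3, UGT1A1 with SULT2B1, and the lowest genes (NNMT, UGT1A6, GSTA1 and GSTA2) with one another. Within each library UGT1A1 was above SULT2B1. The place of UGT1A1 rests on the whole transcript, and per kilobase of its own bases alone it would be 69.9, above PAPSS2 (53.9). Of the 22 expressed genes, 13 were above the middle of the expressed coding genes per kilobase, and their median stood above 70.7% of these genes. With all annotated exons these values were 12 of 22 and 55.4%.

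The promoters of the 39 genes fell into different classes, a grouping chosen after the levels had been seen. Windows from 250 bases before to 50 bases after the canonical start on GRCh37 were called CpG-rich with a CpG observed-to-expected ratio of at least 0.6 and a GC content of at least 50%. Of 18 genes with a CpG-rich window 14 were expressed (77.8%), against 82.7% of all coding genes with such a window. Of 21 genes with a CpG-poor window 8 were expressed (38.1%), against 27.1% of all coding genes of that class. The CpG-rich genes that were not expressed were GSTP1, SULT4A1, GSTM1 and GSTM5. GSTM1 and GSTM5 lay just over the limit, with a ratio of 0.617 each, whereas GSTP1 had 0.879 and SULT4A1 1.17. Just under the limit, and so counted as CpG-poor, were the expressed genes GSTK1 (0.565) and GSTM2 (0.535). UGT1A10, with 0 reads, had 0.579 but also missed the GC limit at 40.3%. The shares of both classes therefore depend on where the limit is set. The upstream bases of PAPSS1 (chr4:108641391-108641640, GRCh37, minus strand, 38 CpG in capitals) are shown to be set beside those of GSTP1 above, because both windows were CpG-rich while PAPSS1 had 13606 to 15474 reads per library and GSTP1 had 1 read in all.
PAPSS1 upstream: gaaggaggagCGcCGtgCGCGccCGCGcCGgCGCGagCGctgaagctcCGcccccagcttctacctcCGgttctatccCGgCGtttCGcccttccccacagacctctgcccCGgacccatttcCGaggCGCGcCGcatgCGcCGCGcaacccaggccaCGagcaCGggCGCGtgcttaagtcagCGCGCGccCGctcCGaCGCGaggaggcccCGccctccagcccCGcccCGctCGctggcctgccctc
In the CpG-poor class SULT1A1, NAT1, GSTM3 and MGST2 were expressed, and GSTA1, GSTA2, SULT2A1 and NAT2 were not.

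**Figure D4:**
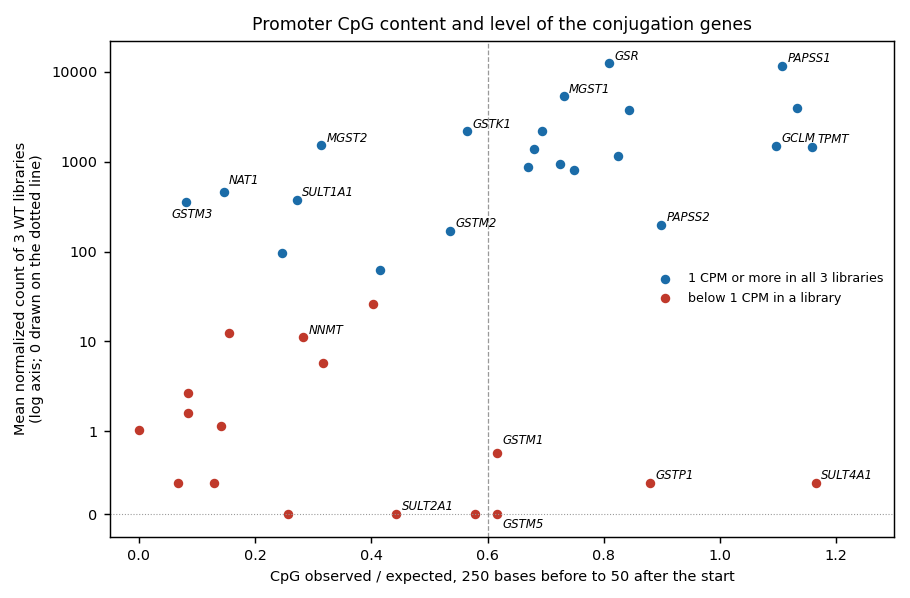
Each point is 1 of the 39 genes, with the CpG observed-to-expected ratio of its promoter window on the x axis and the mean normalized count of the 3 WT libraries on the y axis (log axis, 0 on the dotted line). GSTP1 and SULT4A1 are set apart at the lower right, with CpG-rich windows and almost no reads, and the dashed line marks the ratio of 0.6.

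Many conjugation genes are known targets of NRF2, which binds the antioxidant response element. Its core, TGACNNNGC with N for any base, was searched for on both strands of the same windows. It was present in 9 of the 39 windows (23.1%) and in 14% of the windows of all coding genes. Of the 9 genes 4 were expressed (GCLM, GSR, GSTO1 and GSTA4), and GSTP1, GSTM1, GSTM5, UGT1A6 and SULT1C2 were not. Of the 30 genes without a core 18 were expressed (60.0%), a higher share than the 44.4% of those with one. Over all coding genes 68.0% of those with a core and 63.5% of those without were expressed. Of these, 6 matches in 5 genes are shown, on the strand of the gene with the core in capitals, to compare genes read at very different levels, and those of GSR, GSTA4, UGT1A6 and SULT1C2 are left out.
GSTO1, 226 bases before the canonical start (chr10:106014418-106014438, plus strand): gagggaTGACTGAGCatttat
GSTO1, 161 bases before (chr10:106014483-106014503, plus strand): atgcttTGACACAGCccctta
GCLM, 34 bases before (chr1:94375006-94375026, minus strand): atttctGCTTAGTCAttgtct
GSTP1, 66 bases before (chr11:67351211-67351231, plus strand): gcgccgTGACTCAGCactggg
GSTM1, 165 bases before (chr1:110230268-110230288, plus strand): gcgcccTGACTTCGCtcccgg
GSTM5, 159 bases before (chr1:110254708-110254728, plus strand): gcgcccTGACCTCGCtcccgg
The core of GCLM is on the other strand. GSTM1 and GSTM5 carry nearly the same stretch, and GSTP1 holds a match although it had 1 read in all. A match of these letters is a description of the window and no measure of binding. Bases outside the window were not searched, so a gene without a core here may hold one elsewhere. The difference in expressed shares, with only 9 genes that held a core, was not tested.

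Whether a gene differed between the WT libraries was tested on its recovered reads, with a chi-square for equal shares of the 3 library sizes. The statistic was divided by 3.49, its mean per degree of freedom in genes of 10 to 50 reads. With Benjamini-Hochberg adjustment over 14646 genes, 0 of the 25 conjugation genes that averaged 10 or more reads passed 0.05 as different between the libraries, against 3.47% of all genes tested. Unadjusted values under 0.05 were found for 4 of them, PAPSS1 (adjusted p = 0.123), MGST3 (0.311), GSTM2 (0.379) and NNMT (0.400). The share of all genes tested with such a value is not given here, so these 4 cannot be set against it. With the trended dispersion of edgeR added the count was 0 of 25, against 51 of all 14646 genes tested. Of the 25, 1 then had an unadjusted value under 0.05. This dispersion was estimated from the same 3 libraries, so a gene of typical spread could hardly pass, and the count is no separate check. With the plain chi-square, which takes reads as independent, 12 of 25 differed, against 41.9% of all genes tested. The median coefficient of variation of the 22 expressed genes was 3.6%, and the range was 0.288% for GSTK1 to 24.5% for SULT1A2. GSTM2 varied more than 95.7% of the genes within 1.5-fold of its number of reads, with the highest value in replicate 3. GSTK1 and GSTM3 varied less than almost all such genes, with 0.228% and 0.297% of them below. NNMT spanned 22.1, 3.4 and 7.9 normalized counts, a factor of 6.5 at a mean of 14 reads.

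**Figure D5:**
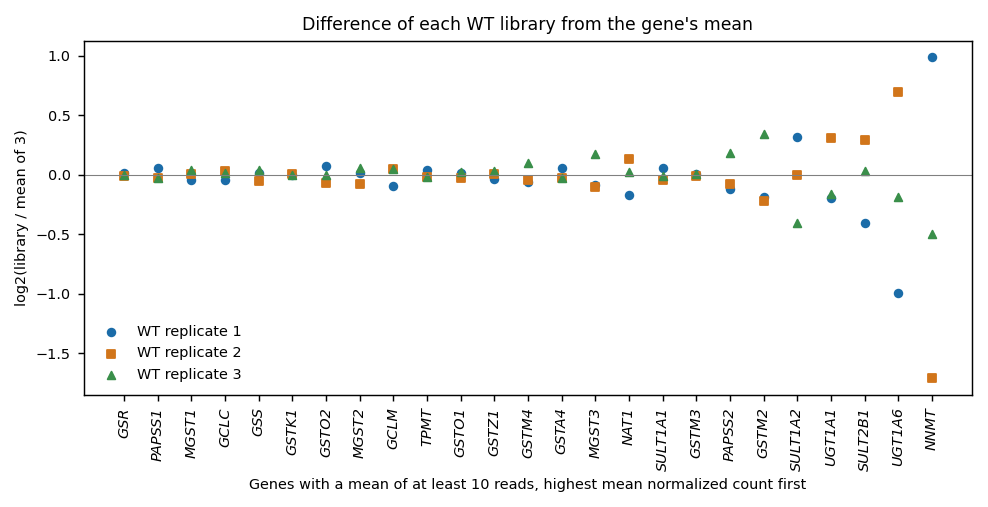
The log2 ratio of each WT library to the mean of the 3 libraries is plotted for the 25 genes that averaged 10 or more reads, from the highest to the lowest mean normalized count. Points spread out to the right, and no library is high or low for all genes.

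Of 60 further genes of these pathways 56 had a row and 26 of these were expressed. The genes named from these lists were picked after their values had been seen. Among other GST and MAPEG genes 2 of 9 were expressed, GSTCD and PTGES, and GSTT2 and GSTT2B had 0 reads. None of the 3 other SULT genes was. UGT8, the ceramide galactosyltransferase, was the expressed one of 9 other UGT genes, at 2413 ± 163 normalized counts (SD, n = 3). Of the other methyltransferases 2 of 6 were expressed, among them HNMT, which inactivates histamine, at 401 ± 12.3 normalized counts. Glutathione turnover had 6 of 10 genes expressed, with GGCT at 5950 ± 220 normalized counts. In the transport of cystine and of conjugates 7 of 8 were expressed, among them SLC7A11, the cystine importer that feeds glutathione synthesis, at 2930 ± 124, and the conjugate exporter ABCC1 at 1353 ± 27.8. ABCC3 was the exception, with 18, 3 and 21 reads. Sulfate supply and PAPS transport had 4 of 5 genes expressed, with SLC35B2, which carries PAPS into the Golgi, at 5854 ± 207 normalized counts. Of 6 regulators NFE2L2 (NRF2), its inhibitor KEAP1, AHR and ARNT were expressed, at 1667 ± 98.4, 3055 ± 54.9, 870 ± 79.8 and 2362 ± 86.6 normalized counts. The liver xenobiotic receptors NR1I2 and NR1I3 had 21, 7 and 13 reads and 0 in each library.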

How the data were processed

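RNA of 3 libraries of 22Rv1 WT cells was sequenced. The authors used HISAT2 to align paired-end reads (GRCh37), HTSeq with GENCODE gene models to count them, and DESeq2 for normalization. The signal the authors deposited is the count of a gene over the size factor of the library, to 1 decimal. GENCODE release, strandedness and treatment of multi-mapped or ambiguous reads are not given in the sources used here.

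Whole reads were recovered from the step of each library (100% of values above 0, within 0.051 normalized counts). Neighbouring rows identical in all 3 libraries and above 0 in at least 1 were counted once (1976 of 29000 rows). Rows of 0 in each library were all kept. A symbol was found for 86.3% of identifiers. Lengths, positions and promoter windows came from GENCODE release 44 lifted to GRCh37, and near-identical transcripts (at least 50% of the length at 98% identity) and nearest matches from minimap2. TMM sizes and dispersions came from edgeR 4.0.16 and alternative size factors from DESeq2 1.42.0 (R 4.3.3); tests used scipy 1.17.1. On simulated counts the test between libraries recovered 197 of 200 genes changed 2-fold in 1 library, with 17 other calls among 14640 genes. The changed genes were drawn from those with at least 100 reads on average, with the noise set to the scale of the test. The result therefore does not cover genes with fewer reads, among them several of the conjugation genes tested. With 1 group, no comparison of conditions was made. The genes, lists and rules were chosen with earlier results of these data known. A few items are not reported here. All 39 genes are named, those with a mean above 3 reads with the value of each library. Promoter classes and 1 length alternative were chosen after the levels were seen.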

Additional observations from a re-analysis of the deposited data

How the results depend on the processing

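All 234 recomputed levels, 6 alternatives for each of 39 genes, stayed within 1 SD of the reported mean. This follows from the common scale and from having 3 libraries, and is no sign of stability. The number of expressed genes was 21 to 23 under other thresholds, scalings and without any 1 replicate. The median level was 9.87 over genes with at least 10 reads, since the low genes were left out. Leaving out replicates 1, 2 or 3 in turn gave 7.51, 7.53 and 7.23. The number of genes that differed between libraries was 0 in all alternatives except the plain chi-square, which gave 12. The alternative with the edgeR dispersion is no independent check, because that dispersion came from the same libraries.

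With all annotated exons as length, shares of the GST level were 11.4% (alpha), 7.29% (mu), 28.2% (omega), 3.76% (zeta) and 35.3% (MGST), and shares of the SULT level were 45.7% (SULT1A1), 43.0% (SULT1A2) and 9.82% (SULT2B1). The ratios were 1.63 (GCLC to GCLM), 74.7 (PAPSS1 to PAPSS2), 3.73 (GSTO1 to GSTO2), 7.21 (MGST1 to MGST3), 702 (NAT1 to NAT2) and 108 (SULT1A1 to SULT1A3). The last was 303 with the canonical length (exact 95% counting interval 118 to 1115) and 196 and 210 without replicates 1 and 2, but it rests on 4 reads of a gene that cannot be told from SULT1A4. With the median length of the coding transcripts, an alternative added with the data in view, the GST shares were 5.79% (alpha), 4.97% (mu), 11.0% (omega), 7.24% (zeta), 13.4% (kappa) and 57.6% (MGST), the SULT shares 74.3% (SULT1A1) and 19.9% (SULT1A2), and the ratios 4.35 (GCLC to GCLM), 4.92 (GSTO1 to GSTO2) and 6.88 (MGST1 to MGST3). The change lies in the lengths alone. No ratio of NAT1 to NAT2 could be had without replicate 1, nor of SULT1A1 to SULT1A3 without replicate 3, because the second gene then had 0 reads. No paired analysis was possible because only 1 group was given. Depth limits the genes near 3 reads, whose differences in level from one another were not detectable.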
